A study of Mus musculus with 51 samples.

Results

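Peaks of histone H3 modification were examined at the transcription start sites (TSSs) of 10 imprinted genes in nuclei of mouse meiotic prophase. The genes were named by the germ line that methylates their control region: H19, Meg3 and Rasgrf1 belong to 3 control regions methylated in the paternal germ line, and Snrpn, Peg3, Mest, Kcnq1ot1, Airn, Nnat and Peg10 to 7 control regions methylated in the maternal germ line. They are 10 of 51229 annotated autosomal genes, and 68 of the 238528 peaks in 20 peak lists overlapped a window of 500 bp on either side of the 5′ end of any of their transcripts. All nuclei came from whole testis of adult male wild-type C57Bl/6J mice, were fixed with formaldehyde, and were sorted by DNA content and by antibodies to SCP3, STRA8, H1t and SCP1 into 5 stages: leptonema, zygonema, early and late pachynema, and diplonema. H3K4me3 (EpiCypher antibody) was mapped by ChIP-Seq in experiments 1 and 2 at each stage, H3K4me2/3 (Abcam ab8580, an antibody that recognizes di- and trimethylated lysine) in experiment 2 only, and H3K9ac in experiment 1 only. The H3K9ac libraries carry that name in their titles and in the study's methods, but their antibody label names H3K4me3. A peak list records where a mark was called and how wide the peak is, with no height, so a gene either has a peak in a list or has none.

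Imprinted genes are expressed from the allele of a single parent, because DNA methylation set in the sperm or the egg is kept on that allele after fertilization. Marks inherited from the parents are erased in primordial germ cells, and in males the paternal pattern is set before birth, so that spermatocytes carry methylated paternal control regions and unmethylated maternal ones on both chromosomes. Most maternally methylated control regions are promoters, whereas those of H19, Meg3 and Rasgrf1 lie upstream of the gene. Methylation of H3K4 marks active and poised promoters and is in general found where CpG dinucleotides are unmethylated. DNA methylation itself was not among the data analysed here.

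The promoters on which the comparison rests differ in CpG content. RefSeq promoters of the same build as the peak lists (GRCm38.p6, 250 bases before to 50 after the annotated start) were matched for 8 of the 10 genes; H19 and Peg10 were the others. Shown 5′ to 3′ on the strand of the gene, with each CpG in capitals, are the promoter of the gene called most often (Kcnq1ot1), those of the genes with H3K4me3 in both leptonema libraries (Peg3 and Airn), that of a gene with H3K4me2/3 only (Snrpn), and those of the paternally methylated genes Rasgrf1 and Meg3.
Kcnq1ot1, chr7:143296498-143296797 (- strand): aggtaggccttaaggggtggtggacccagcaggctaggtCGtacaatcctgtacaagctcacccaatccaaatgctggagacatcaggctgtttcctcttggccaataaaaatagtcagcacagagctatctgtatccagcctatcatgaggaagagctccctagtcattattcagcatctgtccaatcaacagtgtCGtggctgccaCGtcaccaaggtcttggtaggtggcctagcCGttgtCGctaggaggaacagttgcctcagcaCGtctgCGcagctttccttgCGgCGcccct
Peg3, chr7:6730370-6730669 (- strand): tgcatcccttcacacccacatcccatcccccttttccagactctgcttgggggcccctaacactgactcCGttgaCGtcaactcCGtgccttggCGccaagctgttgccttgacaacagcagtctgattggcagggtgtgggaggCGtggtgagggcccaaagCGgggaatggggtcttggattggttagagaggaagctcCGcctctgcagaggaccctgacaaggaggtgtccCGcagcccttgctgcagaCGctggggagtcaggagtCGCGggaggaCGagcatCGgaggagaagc
Airn, chr17:12741061-12741360 (+ strand): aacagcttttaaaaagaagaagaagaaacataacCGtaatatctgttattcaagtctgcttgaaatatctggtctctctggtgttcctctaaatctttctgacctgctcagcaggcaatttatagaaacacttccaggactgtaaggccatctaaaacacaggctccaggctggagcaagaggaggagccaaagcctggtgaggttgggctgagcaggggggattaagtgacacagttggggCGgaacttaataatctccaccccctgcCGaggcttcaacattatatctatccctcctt
Snrpn, chr7:60005150-60005449 (- strand): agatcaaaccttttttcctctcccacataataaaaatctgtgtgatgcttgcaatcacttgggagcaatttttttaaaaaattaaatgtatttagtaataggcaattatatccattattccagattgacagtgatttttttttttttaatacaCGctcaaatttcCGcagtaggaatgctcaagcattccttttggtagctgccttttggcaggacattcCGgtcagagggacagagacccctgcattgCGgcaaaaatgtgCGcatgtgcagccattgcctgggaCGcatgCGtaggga
Rasgrf1, chr9:89909525-89909824 (+ strand): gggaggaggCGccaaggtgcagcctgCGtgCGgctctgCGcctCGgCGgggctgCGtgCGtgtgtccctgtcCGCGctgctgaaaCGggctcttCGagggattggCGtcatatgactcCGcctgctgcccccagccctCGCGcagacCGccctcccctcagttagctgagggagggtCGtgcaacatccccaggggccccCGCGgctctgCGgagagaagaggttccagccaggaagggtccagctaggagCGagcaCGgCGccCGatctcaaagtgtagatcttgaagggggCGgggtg
Meg3, chr12:109540746-109541045 (+ strand): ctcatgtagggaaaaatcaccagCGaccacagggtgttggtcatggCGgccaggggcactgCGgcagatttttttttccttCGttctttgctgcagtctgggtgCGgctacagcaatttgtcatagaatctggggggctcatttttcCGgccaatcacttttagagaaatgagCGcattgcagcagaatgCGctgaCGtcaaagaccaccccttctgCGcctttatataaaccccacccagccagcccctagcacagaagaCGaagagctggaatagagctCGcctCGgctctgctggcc
The Rasgrf1 window held 26 CpGs, above the upper quartile of 21 among 31387 RefSeq promoters of the same length. The Meg3 and Peg3 windows held 13 each, Kcnq1ot1 9, Snrpn 7 and Airn 3, against a median of 7 over all promoters. Of those not printed, the Nnat window held 17, and the matched Mest windows held 8 at the promoter 9.91 kb downstream of its 5′-most TSS and 17 at that 14.5 kb downstream. The letters TGCCGC, searched on both strands, occurred once each in the Meg3, Snrpn and Nnat windows and 2 times in the Mest windows at 14.5 kb, and in 11.6% of all promoters.

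The lists differed in size: 4883 to 15699 peaks for H3K4me3, 17561 to 30943 for H3K4me2/3 and 516 to 16003 for H3K9ac. Read depth was not given by the lists, so a gene without a peak may carry a mark below the caller's limit. The stage labels were checked on marker genes: Stra8, which drives entry into meiosis, had H3K4me3 in both leptonema libraries and in no other, and Sycp3 and Hormad1, which encode proteins of the chromosome axis, had it in all 10. The other 2 of 4 meiotic prophase markers had it in fewer: Sycp1, of the synaptonemal complex, in 8 of 10, and Dmc1, the meiotic recombinase, in the 4 leptonema and zygonema libraries only. Of 4 spermatid markers, Acrv1, Tnp1 and Prm1 had no peak in any list, and Tssk6 had H3K4me3 in the 4 leptonema and zygonema libraries. Of 4 Leydig cell markers, only Insl3 was called, in the diplonema H3K4me3 and H3K4me2/3 lists of experiment 2. The leptonema library of experiment 2 stood apart. Of 4 Sertoli cell markers, it held H3K4me3 peaks at Sox9 (1894 bp), Wt1 (1649 bp) and Gata4 (3669 bp), and none at Amh, while the leptonema library of experiment 1 held none of the 4. Wt1 was also called in zygonema of experiment 2, at 245 bp, and Sox9, Wt1 and Gata4 were called in the H3K4me2/3 leptonema list of the same experiment. The nuclei were sorted with SCP3 among other markers, and by the study's own counts the sorted populations were not fully pure. By those counts the least pure was zygonema of experiment 2, the only source of the zygonema H3K4me2/3 list. The part of other cells in the Sertoli cell marker peaks was not tested.

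H3K4me2/3 covered the promoters of the maternally methylated genes at nearly every stage. All 7 were called in leptonema and zygonema and 6 of 7 at each later stage, Mest being the exception. Over all genes the shares called at the 5 stages were 35.2%, 31.7%, 28.2%, 29.8% and 28.6%, and over protein-coding genes 65.7%, 60.5%, 54.6%, 56.4% and 54.3%. In all 5 lists a peak was called at 6 of 7 maternally methylated genes, at 0 of 3 paternally methylated genes, at 24.0% of all genes and at 48.7% of protein-coding genes. Among long intergenic noncoding and antisense RNA genes the share was 13.1%. H19 and Meg3 are of the first of these types, Kcnq1ot1 and Airn of the second, and the other members are protein-coding. The 2 groups were not matched for gene type. There was 1 library a stage, so these counts have no replicate check.

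Kcnq1ot1, a long noncoding RNA that starts inside Kcnq1 on the opposite strand and silences the domain on the paternal chromosome, had H3K4me2/3 peaks of 1972, 1896, 2391, 2662 and 3096 bp from leptonema to diplonema. Peg3, which encodes a zinc finger protein, had peaks of 3927, 3923, 2175, 2093 and 1827 bp. The Peg3 peaks were wider than 99.5%, 99.8%, 95.3%, 78.4% and 66.3% of the peaks in their lists, and those of Kcnq1ot1 than 90.3%, 91.6%, 96.9%, 88.4% and 89.6%. Airn, the noncoding RNA that starts inside Igf2r and silences it, had peaks of 1286, 1126, 1579, 1108 and 867 bp. Snrpn, which encodes a splicing protein, had peaks of 2056, 927, 1732, 1986 and 151 bp. All 5 lay at its downstream promoter, which is 135 kb from the upstream one and is shared with Snurf, and the diplonema peak was as narrow as the narrowest peak of its list.

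Peg10, a gene derived from a retrotransposon and needed in placenta, had H3K4me2/3 peaks of 2865, 3096, 1345, 1254 and 1590 bp. Nnat, which encodes neuronatin and lies inside Blcap, had peaks of 2204, 2281, 554, 687 and 658 bp. Both were widest in leptonema and zygonema. Mest, which encodes a hydrolase-like protein, had summed widths of 4229 bp in leptonema and 2489 bp in zygonema, at promoters 9.91 and 14.5 kb downstream of its 5′-most TSS, and no peak at the later stages. Several of these peaks cover a promoter shared with another gene, so the mark cannot be assigned to either gene: all 7 Peg10 peaks also overlapped a TSS window of Sgce, all 5 Snrpn peaks that of Snurf, all 6 Nnat peaks that of Blcap, and 6 of 7 Peg3 peaks that of Usp29.

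**Figure D1:**
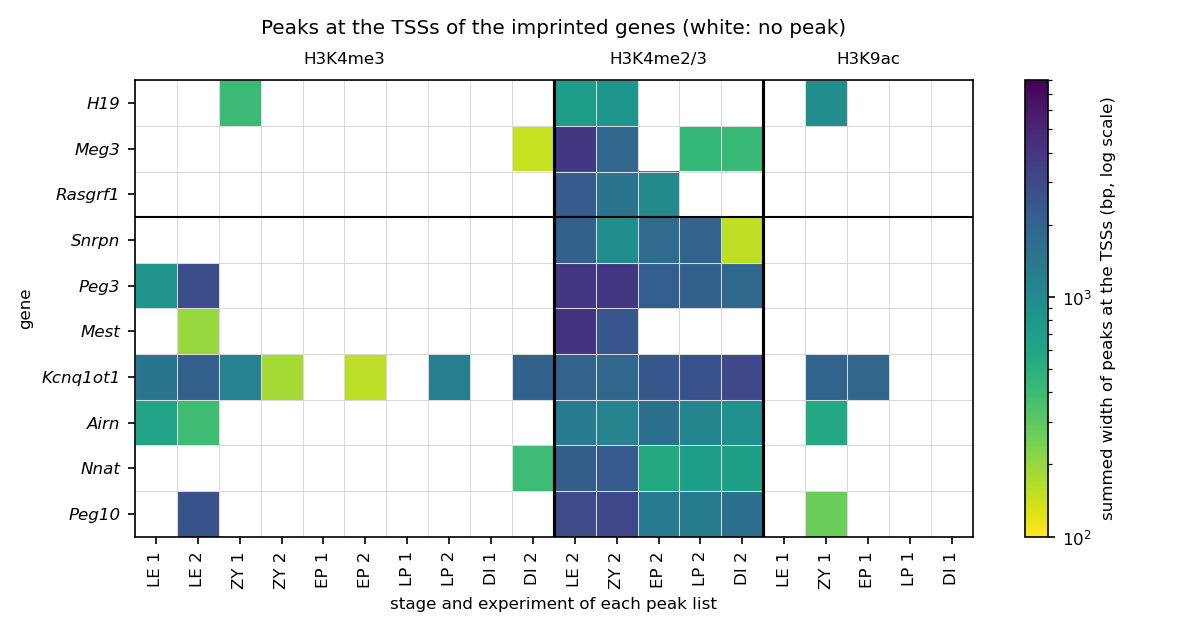
Summed width in bp (color, log scale) of the peaks at the TSSs of each gene (rows; the 3 paternally methylated genes above the line) in each of the 20 peak lists (columns, by stage and experiment; LE, leptonema; ZY, zygonema; EP, early pachynema; LP, late pachynema; DI, diplonema). White cells hold no peak: 6 of 7 maternally methylated genes were filled in all 5 H3K4me2/3 columns and 0 of 3 paternally methylated genes were.

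The paternally methylated genes had H3K4me2/3 calls early and fewer later. All 3 were called in leptonema and in zygonema, and 1 of 3 at each later stage: Rasgrf1 in early pachynema, and Meg3 at both stages after it. H19, a noncoding RNA expressed from the maternal chromosome in embryos, had peaks of 689 and 794 bp in leptonema and zygonema. The leptonema peak lay on its 5′-most TSS and the zygonema peak on the TSSs furthest into the gene, so no base was called at both stages. Rasgrf1, which encodes a guanine nucleotide exchange factor expressed in brain, had peaks of 2280, 1484 and 1024 bp in leptonema, zygonema and early pachynema, and none in late pachynema or diplonema.

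Meg3, a noncoding RNA of the Dlk1-Dio3 domain, differed between its start sites. At its 5′-most TSSs a peak of 3182 bp was called in leptonema and peaks of 492 and 803 bp in zygonema, with none later. At TSSs 8.16 kb downstream, within the gene, peaks of 773, 601, 431 and 420 bp were called in leptonema, zygonema, late pachynema and diplonema. The late calls of Meg3 thus lay outside its 5′ promoter, and at the 5′-most promoters 1 of 3 paternally methylated genes (Rasgrf1) was called in early pachynema and 0 of 3 afterwards. The same restriction would lower the maternal group too, since the 5′-most promoters of Snrpn and Mest had no peak in any list.

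Of genes called for H3K4me2/3 in both leptonema and zygonema, 86.1%, 85.7% and 83.0% were still called at the 3 later stages in turn. Among the maternally methylated genes 6 of 7 were still called at each of these stages, a share of 85.7%, which is near that of all genes. Among the paternally methylated genes 1 of 3 was, and their mean share over the 3 later stages went from 33.3% to 11.1% with windows of 250 bp, which leave out the late Meg3 peaks. With 3 genes in this group no test over genes was made, and the members are not replicates. Spermatogonia and Sertoli cell markers also had fewer calls in the later H3K4me2/3 lists, while Leydig cell and spermatid markers did not. Of the 4 spermatogonia markers (Zbtb16, Gfra1, Kit and Dmrt1) 4, 4, 2, 3 and 2 were called from leptonema to diplonema, with summed widths of 9829, 5638, 2726, 2486 and 1074 bp. Of the 4 Sertoli cell markers 3, 2, 1, 1 and 1 were called, with summed widths of 7292, 2642, 774, 1026 and 400 bp. Of the 4 Leydig cell markers 0, 0, 0, 0 and 1 were called, and of the 4 spermatid markers 1 at every stage. The part of such cells in the H3K4me2/3 calls of the imprinted genes was not tested.

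**Figure D2:**
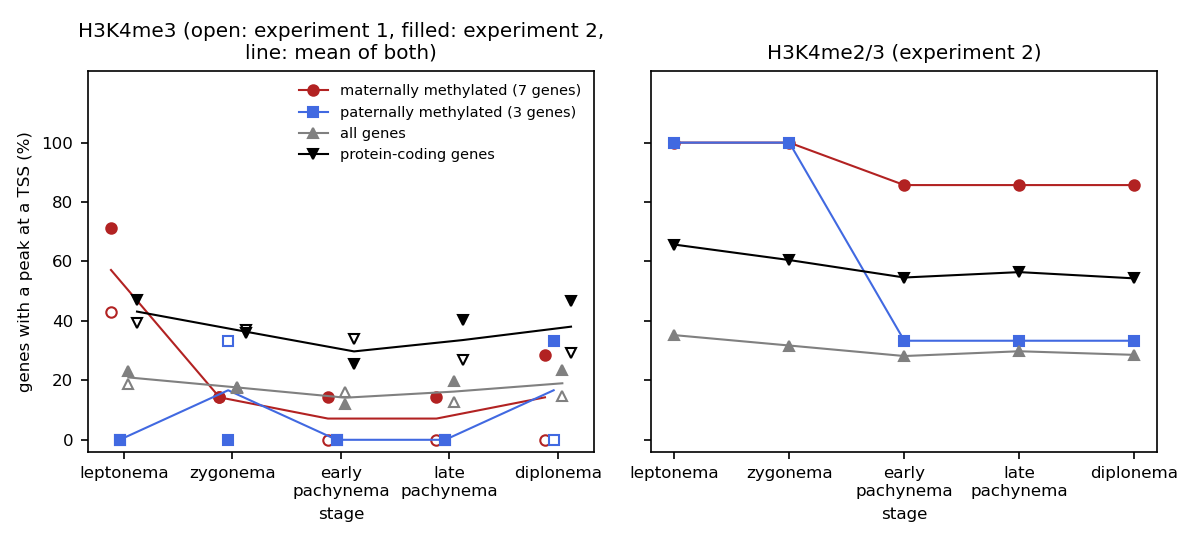
Share of genes with a peak at a TSS (vertical axis, %) at each stage, for the 7 maternally methylated genes, the 3 paternally methylated genes, all genes and protein-coding genes. Left, H3K4me3, with a symbol for each library and lines through the means of the pairs; right, H3K4me2/3, with 1 library a stage, where the paternal group falls from 100% to 33.3% after zygonema and the maternal group from 100% to 85.7%.

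H3K4me3 was rarer at both groups. Of the maternally methylated genes, 3 of 7 (Peg3, Kcnq1ot1 and Airn) were called in both leptonema libraries, a share of 42.9%, where 18.4% of all genes and 38.6% of protein-coding genes were called. In both zygonema libraries 1 of 7 (Kcnq1ot1) was called, against 15.7% of all genes and 32.9% of protein-coding genes, and in both libraries of each later stage 0 of 7 were, against 12.0%, 12.5% and 14.5% of all genes and 25.3%, 26.1% and 29.2% of protein-coding genes. Of the paternally methylated genes 0 of 3 were called in both libraries of any stage. No member was called in all 10 libraries, as 8.61% of all genes and 18.2% of protein-coding genes were. In at least 1 library, 6 of 7 maternally and 2 of 3 paternally methylated genes were called. The shares there were 28.6% of all genes and 55.2% of protein-coding genes.

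Kcnq1ot1 had the most H3K4me3 peaks, 7 in 10 libraries. In leptonema they were 1463 and 2103 bp wide in experiments 1 and 2, and in zygonema 1137 and 182 bp. In the later stages it was called in experiment 2 only, with 154 bp in early pachynema, 1221 bp in late pachynema and 2055 bp in diplonema, and in none of the 3 libraries of experiment 1. The early pachynema peak was as narrow as the narrowest of its list. In early pachynema experiment 2 called fewer genes than experiment 1, 12.1% against 16.2% of all genes. In late pachynema and diplonema the libraries of experiment 2 called 19.6% and 23.5% of all genes, and those of experiment 1 called 12.8% and 14.6%.

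Peg3 and Airn had H3K4me3 in leptonema of both experiments and at no other stage. The Peg3 peaks were 817 bp in experiment 1 and 2815 bp in experiment 2, and the Airn peaks 622 and 392 bp. This pattern was found at 2 of 7 maternally methylated genes and at 0 of 3 paternally methylated genes. It was found at 0.515% of all genes and at 1.01% of protein-coding genes. All 4 peaks lay downstream of the start, beginning 284 to 464 bp from the nearest Peg3 TSS and 173 to 335 bp from that of Airn, so that with TSS windows of 250 bp Peg3 was called in 0 libraries and Airn in 1, and with windows of 1000 bp they were called in 3 and 2.

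The remaining calls rested on single libraries. In leptonema of experiment 2 Peg10 had a peak of 2549 bp and Mest a peak of 198 bp, with none in experiment 1 or at any other stage. These 2 of 7 maternally methylated genes were called in that library and in none of the other 9. Of all genes 1.95% were so called, and of protein-coding genes 3.13%. The same library held the Sertoli cell marker peaks given above. Without it the maternally methylated genes called in leptonema went from 5 of 7 in either library to 3 of 7 in experiment 1. The matching shares of all genes were 23.6% and 18.8%, and those of protein-coding genes 47.7% and 39.2%. In experiment 2 alone 23.2% of all genes and 47.1% of protein-coding genes were called. The part of other cells in the Peg10 and Mest calls was not tested. Nnat had a peak of 398 bp and Meg3 a peak of 144 bp in diplonema of experiment 2, and H19 a peak of 404 bp in zygonema of experiment 1. Snrpn and Rasgrf1 had no H3K4me3 peak in any of the 10 libraries.

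**Figure D3:**
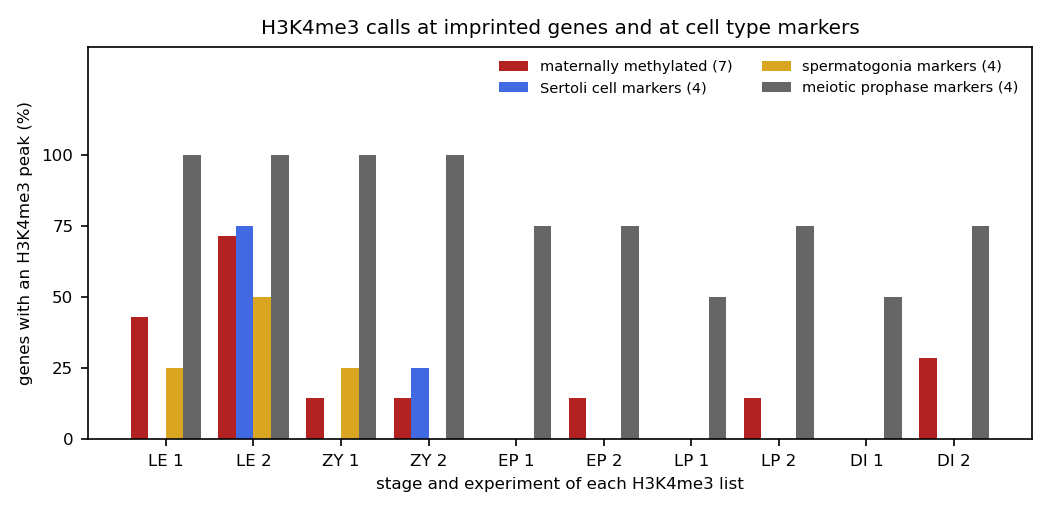
Share of genes with an H3K4me3 peak (vertical axis, %) in each of the 10 H3K4me3 libraries (horizontal axis, by stage and experiment; LE, leptonema; ZY, zygonema; EP, early pachynema; LP, late pachynema; DI, diplonema) for the 7 maternally methylated genes and for 4 markers each of Sertoli cells, spermatogonia and meiotic prophase. In leptonema of experiment 2, 5 of 7 maternally methylated genes and 3 of 4 Sertoli cell markers were called, and in experiment 1, 3 of 7 and 0 of 4.

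To ask whether any gene was called in more libraries early than late, the 4 leptonema and zygonema libraries were compared with the 6 later ones by a two-sided exact permutation test. Peg3 and Airn were called in 2 of 4 against 0 of 6 libraries (p = 0.133, adjusted p = 0.674) and Kcnq1ot1 in 4 of 4 against 3 of 6 (p = 0.200, adjusted p = 0.674, exact permutation tests with Benjamini-Hochberg adjustment). H19, Mest and Peg10 were called in 1 of 4 against 0 of 6, and Meg3 and Nnat in 0 of 4 against 1 of 6, and none of the 8 members tested passed. Among the 10239 genes tested 0 passed after adjustment, 0% in either direction. The smallest p the design allows is 0.00476 and the smallest adjusted p was 0.224, so even genes at that p did not pass. At an unadjusted p below 0.05 there were 766 genes and 0 members. The study gives the libraries of a stage different purities and starting amounts of chromatin, so they came from separate preparations. Nothing labels these libraries as separate animals or cultures, so the spread between them may be technical.

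In experiment 2 the 2 antibodies were used at the same stages, and most H3K4me2/3 peaks of the imprinted genes had no H3K4me3 peak beside them. Of the maternally methylated genes called for H3K4me2/3, H3K4me3 was also called at 5 of 7 in leptonema, 1 of 7 in zygonema, 1 of 6 in early pachynema, 1 of 6 in late pachynema and 2 of 6 in diplonema. Over all genes called for H3K4me2/3 the shares were 65.4%, 54.4%, 42.9%, 65.5% and 81.1%. Of the paternally methylated genes so called, H3K4me3 was called at 0 of 3, 0 of 3, 0 of 1, 0 of 1 and 1 of 1. Snrpn was called for H3K4me2/3 in all 5 lists and for H3K4me3 in no library of experiment 2. This combination was held by 1.02% of all genes and 1.57% of protein-coding genes. Where only di- and trimethylation are read together, the dimethylated part cannot be told apart from trimethylation below the limit of the peak caller.

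H3K9ac, a mark of active promoters, was called at 4 of the 10 genes in at least 1 of 5 lists. Over all genes the share was 22.2%, and over protein-coding genes 44.2%. In zygonema 3 of 7 maternally methylated genes were called (Kcnq1ot1 with 1958 bp, Airn with 571 bp and Peg10 with 268 bp). So was 1 of 3 paternally methylated genes (H19, 912 bp in 2 peaks). Of all genes 20.7% were called at this stage, and of protein-coding genes 41.9%. In early pachynema only Kcnq1ot1 was called among the 10 genes, with 1885 bp, against 17.4% of all genes and 35.7% of protein-coding genes. In leptonema, late pachynema and diplonema 0 of the 10 genes were called, where 7.07%, 4.11% and 1.03% of all genes were. Of protein-coding genes 14.9%, 8.36% and 2.08% were called at these stages. The 4 genes called in zygonema were called by the H3K4me2/3 antibody at that stage as well, but so were all 10 genes. Kcnq1ot1 and H19 were also called for H3K4me3 in zygonema of experiment 1.

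The peaks were placed mostly downstream of the start sites. At Kcnq1ot1 a stretch of 1708 bp, chr7:143294730-143296437 (mm10), was covered by the H3K4me2/3 peaks of all 5 stages, from 112 to 1819 bp into the transcript. At Airn the common stretch was 739 bp, chr17:12741646-12742384, from 335 to 1073 bp into the transcript, beyond the CpG-poor window printed above. At Peg3 it was 1640 bp, chr7:6728822-6730461, from 30 bp before to 1609 bp after the 5′-most TSS. The common stretch of Nnat was 395 bp, chr2:157560036-157560430, and that of Peg10 was 802 bp, chr6:4746742-4747543, of which 564 bp lay before the TSS, towards Sgce. Snrpn had no base common to all 5 lists, since its late pachynema peak began 225 bp into the transcript and its diplonema peak ended 71 bp into it.

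**Figure D4:**
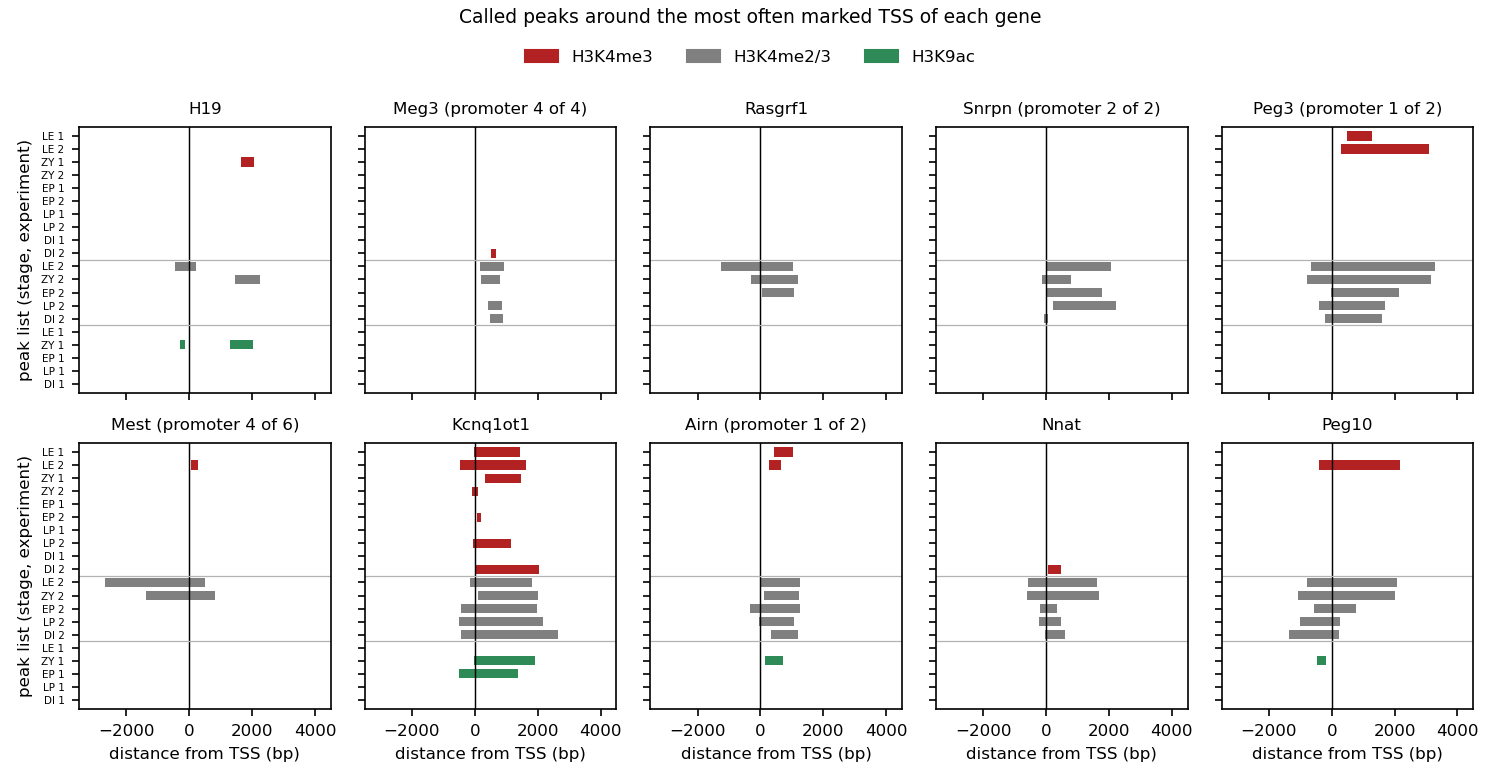
Extent of called peaks (bars; horizontal axis, bp from the TSS in the direction of transcription) in the 20 lists (rows, by stage and experiment; LE, leptonema; ZY, zygonema; EP, early pachynema; LP, late pachynema; DI, diplonema; red, H3K4me3; grey, H3K4me2/3; green, H3K9ac) around the most often marked TSS of each gene. Bars extend further into the gene than before it at Kcnq1ot1, Airn and Peg3, and are present in all 5 H3K4me2/3 rows at 6 maternally methylated genes.

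Because the paternal control regions lie outside the TSS windows, peaks were also sought within 50 kb upstream of each gene. The share of all genes with a peak so placed was not computed, so the counts have no background and are a description only. The study reports that H3K4me3 at sites of meiotic DNA breaks was maximal at zygonema. Overlap of the upstream peaks with such sites was not tested. There were 0 sites upstream of H19 and Meg3, and also of Kcnq1ot1 and Nnat. Upstream of Rasgrf1 there was 1 site, 0.917 to 1.33 kb before the start (chr9:89908581-89908991). It was called in diplonema of experiment 2 for H3K4me3 and H3K4me2/3 in peaks of 145 to 411 bp. The TSS window of Rasgrf1 held neither mark in diplonema or late pachynema. Its leptonema H3K4me2/3 peak (chr9:89908663-89910942) overlapped the site, so that stretch was not marked in diplonema only. Airn had 1 site 41.4 to 43.3 kb upstream, at no annotated TSS, with H3K4me3 in all 4 leptonema and zygonema libraries and in 0 of the 6 later ones. Peg10 had 1 site 18.2 to 19.4 kb upstream, also at no TSS, called in the 4 zygonema lists of the 3 antibodies and in no other stage. Peg3 had 1 such site 20.8 to 21.5 kb upstream, with H3K4me2/3 in zygonema and early pachynema and H3K9ac in zygonema. Mest had 2 sites, of which the nearer, 12.0 to 13.0 kb upstream and at no TSS, had H3K4me2/3 in leptonema and zygonema, as its own promoters did, and the farther lay at the TSS of Cep41. Snrpn had 1 site, 15.2 to 16.5 kb upstream of its 5′-most TSS and at the TSS of Gm7367, called in 4 H3K4me2/3 lists and in the H3K4me3 leptonema library of experiment 2.

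The genes that share these domains gave a further comparison. Of 7 neighbours in the paternally methylated domains, 0 were called for H3K4me2/3 in all 5 lists and 0 for H3K4me3 in both libraries of any stage, and Ins2, Rtl1 and Rian had no peak in any of the 20 lists. Igf2, a fetal growth factor gene beside H19, was called only in leptonema of experiment 2, with 166 bp for H3K4me3 and 2843 bp for H3K4me2/3. Mirg, a noncoding RNA downstream of Meg3, was called only late, with H3K4me2/3 peaks of 3065 bp in late pachynema and 3113 bp in diplonema. Of 21 neighbours in the maternally methylated domains, 11 were called for H3K4me2/3 in all 5 lists, a share of 52.4% beside 48.7% of protein-coding genes. Among the 11 were Snurf, Usp29, Sgce and Blcap, which share their peaks with Snrpn, Peg3, Peg10 and Nnat. Their calls are therefore not independent of the members, and the share without them was not computed. Slc22a18, a transporter gene beside Kcnq1, had H3K4me2/3 only in late pachynema (284 bp) and diplonema (737 bp), and Kcnq1, Slc22a3 and Asb4 had it only in leptonema (856, 188 and 720 bp).

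Of 11 genes at further maternally methylated control regions, 10 were called for H3K4me2/3 in all 5 lists, beside 24.0% of all genes and 48.7% of protein-coding genes, the exception being Slc38a4, an amino acid transporter gene, which had a peak of 1195 bp in zygonema only. For H3K4me3, 7 of 11 were called in both libraries of leptonema and of zygonema. In both libraries of early pachynema 2 of 11 were, in late pachynema 3 of 11 and in diplonema 6 of 11. The shares at the 5 stages were 18.4%, 15.7%, 12.0%, 12.5% and 14.5% of all genes. Of protein-coding genes they were 38.6%, 32.9%, 25.3%, 26.1% and 29.2%. Peg13, a noncoding RNA, had the leptonema pattern of Peg3 and Airn, with H3K4me3 peaks of 383 and 1130 bp in the leptonema libraries and none elsewhere; it was singled out after its values were seen. Zdbf2, whose control region is methylated in the paternal germ line and lies outside the promoters counted here, was called for H3K4me3 in all 10 libraries, with 515 to 1116 bp, and for H3K4me2/3 in all 5. The difference between H19, Meg3 and Rasgrf1 and the maternally methylated genes in H3K4me2/3 calls therefore did not extend to this gene, which was also singled out after its values were seen. Of these 40 neighbouring and further genes, 20 were called in at least 1 and not all of the 10 H3K4me3 libraries and could be tested. Of the 20, 0 passed the early against late test, as 0 of all 10239 genes tested did.

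**Figure D5:**
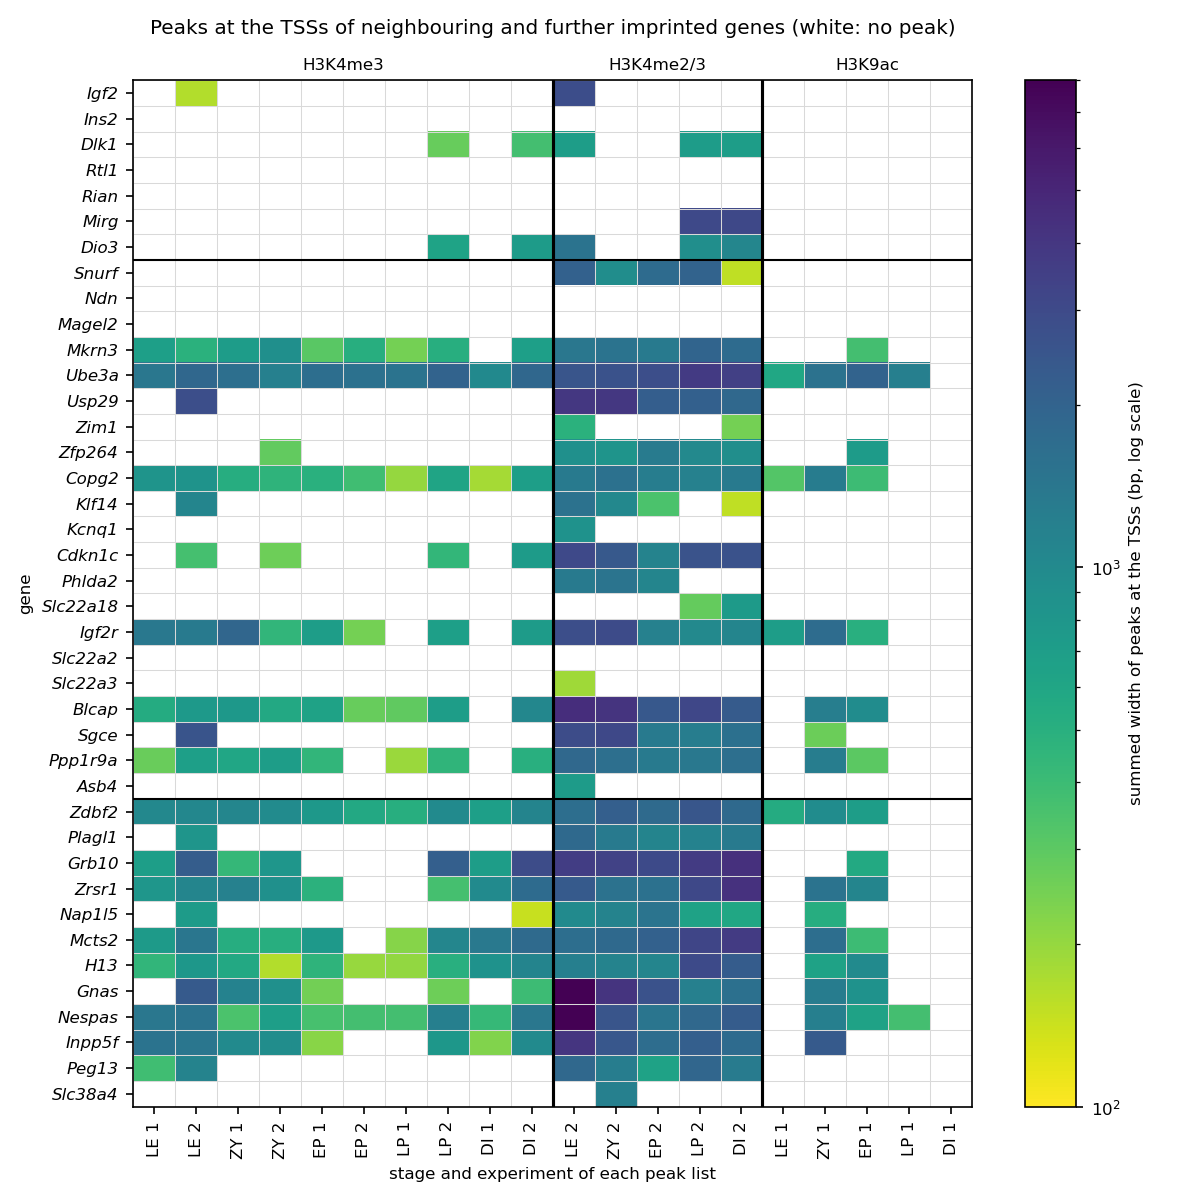
Summed width in bp (color, log scale; white, no peak) of the peaks at the TSSs of 28 neighbours of the 10 genes (7 in paternally methylated domains above the first line, 21 in maternally methylated domains below it) and 12 genes of further control regions (below the second line) in the 20 peak lists, by stage and experiment (LE, leptonema; ZY, zygonema; EP, early pachynema; LP, late pachynema; DI, diplonema). H3K4me2/3 fills all 5 columns at 0 of the 7, 11 of the 21 and 11 of the 12 genes.

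For each gene, the gene of another locus whose summed peak widths were most alike over the 15 H3K4me3 and H3K4me2/3 lists was found by Pearson's correlation, as a description, since the lists share libraries and many entries are 0. Kcnq1ot1 was most like Fam76b (r = 0.969), Peg3 like Panx2 (r = 0.988) and Airn like Alad (r = 0.978). Snrpn was most like Ccdc63 (r = 0.997), Peg10 like Gls2 (r = 0.992), Nnat like Bcl2 (r = 0.994) and Mest like Lrp1 (r = 0.999). Of the paternally methylated genes, H19 was most like Gm7513 (r = 0.997), Meg3 like Zfp764 (r = 0.997) and Rasgrf1 like Gm8520 (r = 1.00). The nearest profile of each of the 10 genes therefore belonged to a gene outside the imprinted lists used here. This was likely beforehand, since genes within 100 kb were left out and few of the 51229 genes are on those lists. Usp29, listed as a neighbour of Peg3, ranked 3 for Peg10 (r = 0.989).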

How the data were processed

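Nuclei of C57Bl/6J testis were sorted into 5 stages of meiotic prophase and profiled by ChIP-Seq. The deposited files hold broad peaks as start and end coordinates on chromosomes 1 to 19, with no count, score or signal, and the authors' steps, per the labels and methods, were alignment to mm10 with BWA 0.7.12 and peak calling in each library with MACS2 2.1.2 against the stage-matched input (stated for H3K4me3; for H3K9ac the control is not given in the sources used here). The submitters' processing notes also name deepTools 3.0.1. Depth cannot be read from the lists, so only calls and widths were compared. Of 51 samples, 31 have no list and were not analysed here.

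A gene was called in a list where a peak overlapped, by at least 1 bp, a window of 500 bp on either side of any transcript 5′ end (GENCODE M21, the same build). TSSs within 1 kb were joined into promoters, and widths of the peaks at a gene were summed. Libraries were compared by two-sided exact permutation tests over 210 splits, with Benjamini-Hochberg adjustment over genes called in at least 1 and not all of 10 libraries (threshold 0.05), in Python 3.11.15 with numpy 2.4.6 and scipy 1.17.1. The code was tested on simulated data. All 10 genes were named, neighbours where they shared a peak or were called wholly early (leptonema and zygonema) or wholly late, and the most alike gene over 100 kb away for genes called in at least 3 of the 15 H3K4me3 and H3K4me2/3 lists. Members and lists were chosen with earlier results of these data known. Alternatives were windows of 250 and 1000 bp, an overlap of 250 bp, the wider peaks of each list, equal list sizes, basic transcripts, either library of a stage, leaving out each library, and a replicate block.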

Additional observations from a re-analysis of the deposited data

How the results depend on the processing

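Depth and peak heights are unknown, H3K4me2/3 and H3K9ac have 1 library a stage, and with 2 H3K4me3 libraries a stage the smallest p for a single stage against the rest is 0.0222. Of 134 recomputed group shares and counts of genes past the test threshold, 126 were labelled the same and 8 moved. H3K4me3 shares were held to the standard deviation over all libraries of the stages averaged, which includes differences between stages as well as between replicates. Shares of the other marks, without replicates, were held to the exact 95% binomial interval of the share over genes and lists. Counts past the threshold were the same where they remained 0, and have no interval. With 3 and 7 genes these ranges are wide. Within them, the H3K4me2/3 share of paternally methylated genes at the later stages went from 33.3% to 11.1% with windows of 250 bp, an overlap of 250 bp, wider peaks or basic transcripts, and to 44.4% with windows of 1000 bp. The H3K4me3 share of maternally methylated genes in leptonema and zygonema went from 28.6% to 7.14% with windows or an overlap of 250 bp and to 14.3% with wider peaks or equal list sizes, and their H3K9ac share there from 21.4% to 7.14% with wider peaks. Counting a peak in either library, H3K4me3 shares rose from 0 to 19.05% of maternally methylated genes at the later stages and from 0 to 16.7% of paternally methylated genes in leptonema and zygonema. For the latter, leaving out each library in turn gave 0 to 16.7%, the higher value without zygonema replicate 2, which leaves the H19 call of experiment 1. With the wider peaks of each list only, H3K4me2/3 shares became 57.1% (maternal, later stages, from 85.7%) and 50.0% (paternal, leptonema and zygonema, from 100%), and H3K9ac in the paternal group in leptonema and zygonema 0. With equal list sizes both groups had 0 H3K9ac calls there. In every setting tried, 0 of 3 paternally methylated genes had H3K4me2/3 in all 5 lists, and 3 to 6 of 7 maternally methylated genes did, against 14.8% to 24.7% of all genes. These settings keep fewer peaks or need fewer libraries by construction.

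Of the differences of single genes between early and late H3K4me3 libraries, 2 reversed: Meg3 became 8.33 points higher early with windows of 1000 bp, and H19 fell by 12.5 points when leptonema alone was compared with the other 4 stages. That comparison, chosen after seeing the data, gave p = 0.0222 for Peg3 and Airn by exact permutation test, the smallest it allows, and an adjusted p of 0.810, with 281 genes at an unadjusted p below 0.05 and 0 called. With the experiment number as a replicate block (100 splits, smallest p 0.01), 0 members and 0 genes were called and 495 genes had an unadjusted p below 0.05. Deviations from the stage means correlated at -0.137 to 0.213 (median 0.0547) between stages of an experiment. A correlation cannot show a shift common to all genes of a library, so it does not settle whether the experiment numbers pair the libraries. In diplonema 4581 genes were called in experiment 2 only and 31 in experiment 1 only. In early pachynema these counts were 73 and 2174.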
